A study of Mus musculus with 2 samples.

Results

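Droplets that held macrophage RNA and cancer RNA together were selected on raw UMI counts from 2 single-cell libraries of Lewis lung carcinoma (LLC) tumors. A barcode was a member when it had at least 1000 UMIs (unique molecular identifiers, which count molecules), less than 10% of them from mitochondrial genes, at least 1000 CPM (UMIs scaled by the barcode's total UMIs to a common total) and at least 3 UMIs of the cancer genes Rhox5, Krt8, Krt18 and Hmga2 together, and at least 1000 CPM of the myeloid genes Tyrobp, Fcer1g and Ctss together. This gave 1563 members of 40638 barcodes, of which 33363 passed the depth and mitochondrial limits. There were 173 members among 12281 such barcodes in the sGC Ctr library and 1390 among 21082 in the sGC ∆PC library.

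LLC is a transplantable mouse lung carcinoma line that grows in C57BL/6 mice. sGC Ctr tumors grew in Gucy1b1 flox/flox mice and sGC ∆PC tumors in Cspg4-CreERT2::Gucyc1b1 flox/flox mice (as the label spells it), both C57BL/6. All mice carried the floxed allele and were given tamoxifen 5 times when 4 weeks old and LLC cells under the skin when 8 weeks old, and were dissected 2 weeks later, with 3 tumors pooled in each library. Cre came from the Cspg4 locus, a gene of pericytes, so the deletion was aimed neither at macrophages nor at cancer cells, and each condition had 1 library, so tumor and library differences cannot be told apart from genotype. The libraries are called Ctr and ∆PC from here on.

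Tumor-associated macrophages arise mainly from blood monocytes and to a lesser extent from resident cells, and they take up dying cells through receptors such as Mertk, Axl and Stab1 and degrade them in lysosomes. A droplet can hold the RNA of a macrophage and a cancer cell because the macrophage had swallowed cancer material, because both cells stuck together through dissociation, because both entered one droplet by chance, or because free RNA from broken cells was captured beside a single cell. RNA counts alone do not separate these routes. Rhox5 is a homeobox gene of the reproductive tract that many tumor lines express, Krt8 and Krt18 are keratins of simple epithelia, and Hmga2 is an oncofetal chromatin protein. Tyrobp and Fcer1g are signaling adaptors of myeloid receptors, and Ctss is a lysosomal protease of antigen-presenting cells.

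The Ctr library held 487859656 UMIs over 15007 barcodes with a median of 23337, and the ∆PC library held 436352742 UMIs over 25631 barcodes with a median of 8019. The libraries shared 131 barcode sequences, which included 1 Ctr member and 2 ∆PC members, and none was a member in both. The deleted gene was first followed as a check of the labels. Gucy1b1, which encodes the beta subunit of soluble guanylate cyclase, had 61 UMIs in 42 barcodes marked by pericyte genes in Ctr (104 CPM) and 18 UMIs in 51 such barcodes in ∆PC (28.6 CPM). Among members it had 0 UMIs in Ctr, which allows up to 0.376 CPM, and 1 UMI in ∆PC.

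Barcodes were sorted into members, barcodes with the myeloid rule alone (3896 in Ctr and 5828 in ∆PC, called myeloid-only), barcodes with the cancer rule alone (6528 and 11068, called cancer-only) and those with neither (1684 and 2796). Since the thresholds chose the members, their marker levels are given as a description. The median member held 1542 CPM of the cancer genes and 1493 CPM of the myeloid genes in Ctr, and 1498 and 1613 CPM in ∆PC. Summed over members, Rhox5 stood at 578 CPM in Ctr and 611 in ∆PC, Krt18 at 351 and 293, Tyrobp at 459 and 547, and Ctss at 343 and 428. The threshold of 1000 CPM was 57.5% of the cancer-gene level of the median cancer-only barcode in Ctr and 59.2% in ∆PC, but 17.2% and 23.7% of the myeloid-gene level of the median myeloid-only barcode, so the rule asked for much more of a cancer cell's RNA than of a macrophage's. Between 750 and 1250 CPM of cancer genes, 48 barcodes with myeloid RNA lay just inside and 160 just outside in Ctr, and 374 and 897 in ∆PC. In Ctr those just inside had a median of 59646.5 UMIs and those just outside 2202.5. Only 7 members in Ctr and 100 in ∆PC exceeded 2000 CPM on both sides.

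Single droplets show how different the members were. The Ctr droplet with barcode atgggtttcggcactg held 117978 UMIs, among them 48 of Rhox5, 26 of Krt8, 52 of Krt18 and 48 of Hmga2 beside 42 of Tyrobp, 82 of Fcer1g, 31 of Ctss, 913 of Lyz2 and 151 of C1qa. Both sides were represented by many molecules. The Ctr droplet tgcagtaagatggcac held 2292 UMIs and entered with 2 UMIs of Rhox5 and 1 of Hmga2 beside 3 of Tyrobp and 5 of Fcer1g, with 1 of Lyz2 and none of C1qa. It was a shallow myeloid barcode with 3 UMIs of the 4 cancer genes. The ∆PC droplet ccacactaggttacct held 9002 UMIs with 8 of Rhox5, 2 of Krt8, 1 of Krt18 and 2 of Hmga2 beside 5 each of Tyrobp, Fcer1g and Ctss, 12 of Lyz2 and 7 of C1qa. Both sides were present there in fewer molecules. Barcodes are printed as droplet names, in lower case.

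The myeloid side of the label was checked with 12 macrophage genes that the rule did not use, among them C1qa, C1qb, C1qc, Csf1r, Adgre1, Cd68, Lyz2, Fcgr3, Ms4a7, Cd14 and Aif1. All 12 were detected in the members of both libraries, and their sum was 8192 CPM in Ctr and 7882 CPM in ∆PC. Lyz2, the lysozyme of myeloid cells, led with 4545 and 4598 CPM, and C1qa, a complement subunit made by macrophages, reached 1117 and 900 CPM. At least 3 of the 12 genes were present in 157 of 173 members and in 1321 of 1390, with 11 and 7 genes in the median member. Under 5000 UMIs this held for 30 of 46 members in Ctr and 486 of 544 in ∆PC, and at 5000 to 20000 UMIs for 7 of 7 and 709 of 720. In Ctr, 22 of the 46 members under 5000 UMIs (47.8%, exact 95% binomial interval 32.9 to 63.1%) had at least 5000 CPM of the neutrophil genes S100a8 and S100a9, and the 12 macrophage genes summed to 4285 CPM. Myeloid-only barcodes of that depth were marked in 342 of 877 cases (39.0%), inside the members' interval. The label macrophage therefore went against the data for these 22 droplets, which hold granulocyte genes. In ∆PC 50 of 544 members under 5000 UMIs (9.19%) were marked this way, against 11.9% of myeloid-only barcodes, and above 5000 UMIs 0 of 127 members in Ctr (up to 2.86%) and 4 of 846 in ∆PC. All intervals are exact at 95% and cover counting error only, not variation between tumors.

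Genes of other cell types were then summed over the members. Of 5 T-cell genes 2 were detected in Ctr members and 5 in ∆PC members, at 0.251 and 2.47 CPM together, with Cd3e, Cd3g and Trac at 0 in Ctr. NK-cell genes stood at 0.125 and 1.31 CPM with Ncr1 at 0 in both libraries, and B-cell genes at 1.00 and 0.435 CPM with Ms4a1 at 0 in both. Dendritic-cell genes summed to 8.52 and 16.9 CPM with Fscn1 highest, endothelial genes to 32.2 and 49.5 CPM with Egfl7 highest, and pericyte genes to 6.89 and 12.98 CPM with Pdgfrb highest. In ∆PC the endothelial sum was above that of both myeloid-only (31.1 CPM) and cancer-only barcodes (39.2 CPM). All 6 granulocyte genes were present, at 390 and 532 CPM against 1673 and 1488 CPM in myeloid-only barcodes, with S100a9 highest. Fibroblast genes reached 1219 and 1427 CPM, led by Col3a1, and stood at 1457 and 1658 CPM in cancer-only barcodes. Hemoglobin genes were at 6.64 and 1.52 CPM, against 90.6 and 3.62 CPM in myeloid-only barcodes.

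The first comparison asked what share of the barcodes with myeloid RNA was joined to cancer RNA. It was 173 of 4069 in Ctr (4.25%, 3.65 to 4.92%) and 1390 of 7218 in ∆PC (19.3%, 18.4 to 20.2%). Of the barcodes with cancer RNA, members were 2.58% of 6701 and 11.2% of 12458. The intervals of the libraries did not overlap, but with 1 library a condition there is no test of the genotype. The size of the gap changed with depth. At 1000 to 2000 UMIs members were 7.02% (4.40 to 10.5%) in Ctr and 8.98% (7.64 to 10.5%) in ∆PC, with overlapping intervals. At 2000 to 5000 UMIs they were 4.01% (2.61 to 5.86%) and 20.02% (18.3 to 21.9%). Between 5000 and 20000 UMIs they were 7 of 2710 (0.258%, 0.104 to 0.531%) and 720 of 3171 (22.7%, 21.3 to 24.2%). At 20000 to 50000 UMIs they were 34 of 320 (10.6%, 7.47 to 14.5%) and 86 of 371 (23.2%, 18.98 to 27.8%). At 50000 UMIs and more they were 86 of 116 (74.1%, 65.2 to 81.8%) and 40 of 56 (71.4%, 57.8 to 82.7%). The intervals thus overlapped in the shallowest and the deepest range, and in those between the share was higher in ∆PC.

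**Figure D1:**
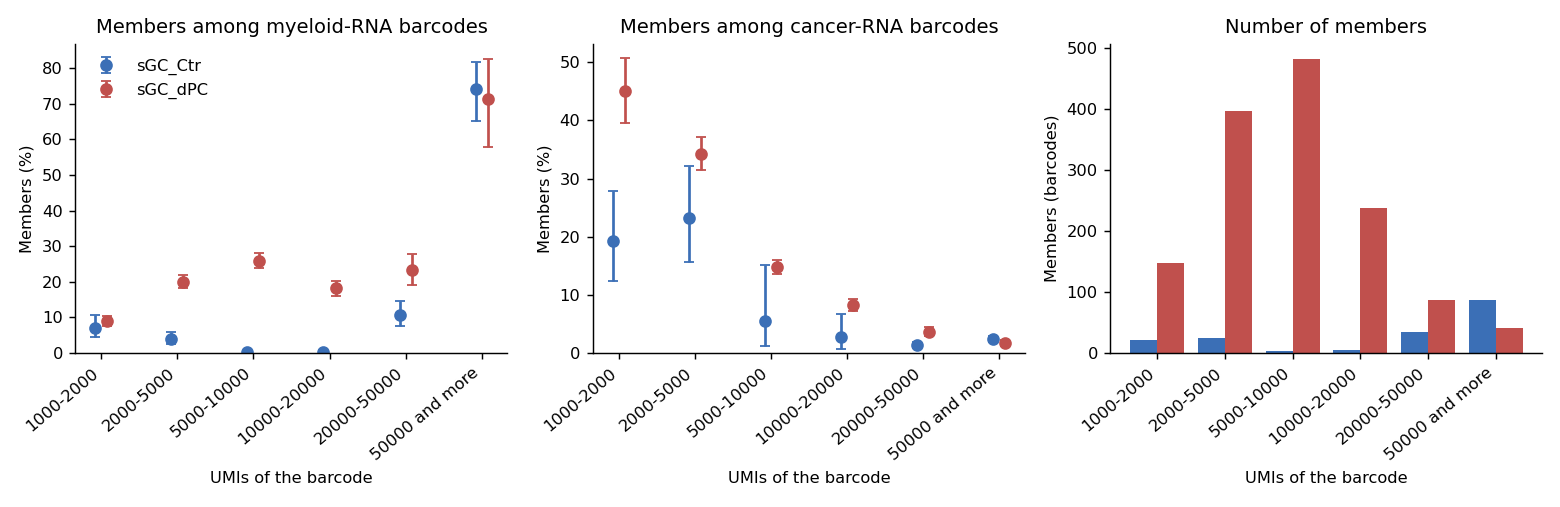
Members by depth of the barcode (horizontal axis, UMIs of the barcode in 6 ranges) in sGC_Ctr (sGC Ctr, blue) and sGC_dPC (sGC ∆PC, red): left, members as a percentage of myeloid-RNA barcodes; middle, as a percentage of cancer-RNA barcodes; right, the number of members. Points are shares with exact 95% binomial intervals; both libraries exceed 70% of myeloid-RNA barcodes at 50000 UMIs and more, while between 5000 and 20000 UMIs only sGC_dPC has many members.

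Members thus occupied different depths in the libraries. In Ctr 69.4% of members had 20000 UMIs or more and 4.05% had 5000 to 20000, and the median member held 49901 UMIs and 6320 genes. In ∆PC 9.06% had 20000 or more and 51.8% had 5000 to 20000, and the median member held 6263 UMIs and 2031 genes. Cancer-only barcodes moved in the same way. Between 5000 and 20000 UMIs there were 198 of them in Ctr and 5469 in ∆PC, and the median cancer-only barcode held 52609.5 and 15484.5 UMIs. The part of this shift in the members' share was not tested. Myeloid-only barcodes had medians of 8679 and 4498.5 UMIs. At the top of the depth range a barcode with myeloid RNA mostly had cancer RNA too. The median mitochondrial share of members was 4.31% and 4.32%.

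Depth could also set whether 3 cancer UMIs were found. After every barcode was thinned to 2000 UMIs, with shallower barcodes left out, 171 of 3883 myeloid-RNA barcodes in Ctr (4.40%) and 1290 of 6300 in ∆PC (20.5%) met both rules, close to the unthinned shares. The cancer rule was also met by cells that should lack these genes. Of barcodes marked by T-cell genes it was met by 8 of 85 in Ctr (9.41%, 4.15 to 17.7%) and 4 of 76 in ∆PC (5.26%, 1.45 to 12.9%), at median depths of 3016 and 4059 UMIs against 8839 and 4977 in all myeloid-RNA barcodes. Thinned to 2000 UMIs, T-cell barcodes stood at 8.62% and 4.84%. The members' share thus lay inside the interval of the T-cell barcodes in Ctr and above it in ∆PC. Barcodes marked by granulocyte genes met the cancer rule in 7.67% of 404 and 18.7% of 518 cases, and those marked by endothelial genes in 5.56% of 72 and 30.1% of 113 (thinned, 5.63% and 15.9%). Granulocyte and endothelial barcodes thus also had a higher share in ∆PC, with intervals that did not overlap before thinning, while those of the few T-cell barcodes overlapped. After thinning the granulocyte intervals still did not overlap (2.79 to 9.13% and 11.6 to 19.4%), and the endothelial ones did. Granulocyte barcodes are not a separate background, since many also met the myeloid rule: 357 in Ctr and 383 in ∆PC were myeloid-only.

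How much of each cell's RNA a member held was estimated from private genes, which left out the rule genes. The 427 macrophage-private genes stood at least 10-fold higher in myeloid-only than in cancer-only barcodes of both libraries, led by Lyz2, Tmsb4x and C1qa. The 37 cancer-private genes stood at least 10-fold higher in cancer-only barcodes than in 715 and 452 myeloid barcodes with no UMI of the 4 cancer genes, led by Cald1, an actin-binding protein, and Xist. The macrophage weight is the members' level of macrophage-private genes as a percentage of the myeloid-only level, and the cancer weight the same against cancer-only barcodes. Members pooled had a macrophage weight of 25.3% and a cancer weight of 83.5% in Ctr, and 30.6% and 73.9% in ∆PC. The same measures gave a macrophage weight of 2.76% and 4.59% in cancer-only barcodes and a cancer weight of 13.7% and 19.7% in myeloid-only barcodes, the background beside which the members' weights stand. The cancer-private genes were set against myeloid barcodes only. Barcodes marked by endothelial genes had a median cancer weight of 74.7% in Ctr and 80.6% in ∆PC, so this weight is not particular to cancer cells. The threshold of the rule also lay higher on the cancer side, and its part in the imbalance of the members' weights was not tested. A non-negative fit of both single-type profiles to all genes gave 21.3% macrophage and 77.8% cancer in Ctr, and 38.1% and 64.3% in ∆PC.

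**Figure D2:**
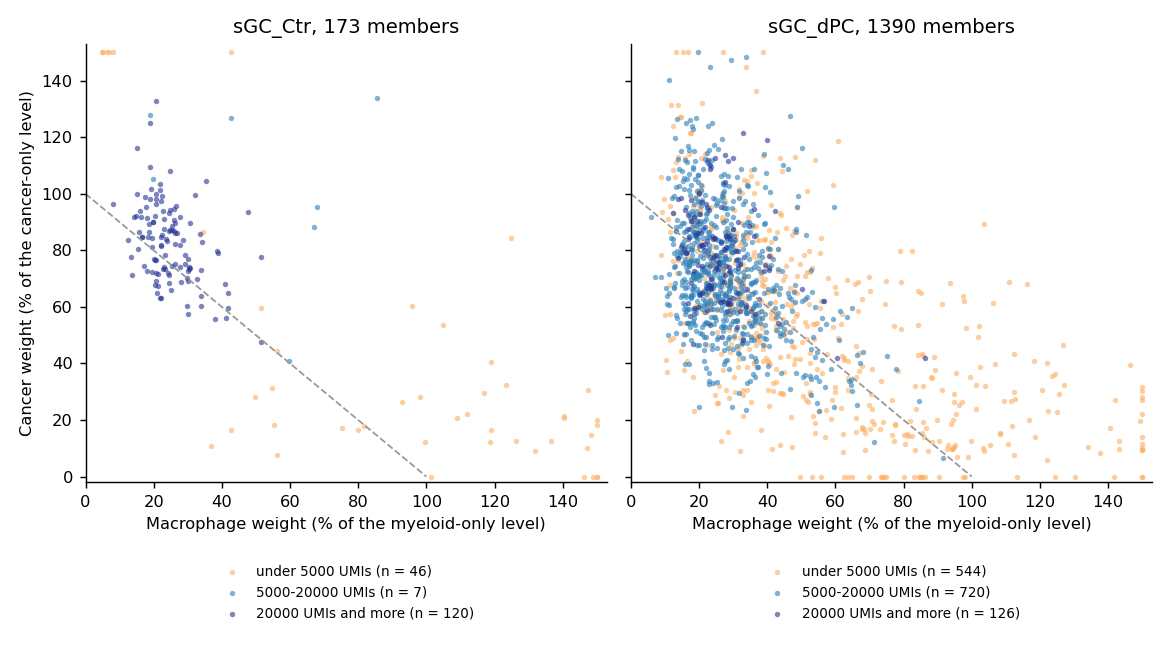
Macrophage weight (horizontal axis, % of the myeloid-only level) against cancer weight (vertical axis, % of the cancer-only level) of each member, 1 point per member, in sGC_Ctr (left) and sGC_dPC (right), colored by depth; values over 150 are drawn at 150 and the dashed line marks weights that sum to 100. Members of 20000 UMIs and more lie close together at low macrophage and high cancer weight in both libraries, and members under 5000 UMIs spread to the lower right.

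Deep and shallow members differed in makeup. At 50000 UMIs and more the median member had a macrophage weight of 22.5% and a cancer weight of 84.2% in Ctr, and 28.2% and 76.5% in ∆PC. At 2000 to 5000 UMIs the medians were 119% and 18.2% in Ctr, and 40.3% and 54.1% in ∆PC. At 1000 to 2000 UMIs the libraries were closer, with 55.4% and 29.4% in Ctr and 57.6% and 43.4% in ∆PC. At 5000 to 10000 UMIs, where ∆PC had 482 members, their medians were 27.3% and 68.3%. A cancer weight of 50% or more was found in 136 of 173 and 1025 of 1390 members, a macrophage weight of 50% or more in 42 and 288, and both in 8 and 72.

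The amount of macrophage RNA can also be read as a number of molecules. Members of 50000 UMIs and more held a median of 1181 macrophage-private UMIs in Ctr and 1337 in ∆PC, against 1143 and 1560 in the 30 and 16 myeloid-only barcodes of that depth. Those myeloid-only barcodes themselves had a median cancer weight of 73.3% and 73.1%. The median myeloid-only barcode of any depth held 675 and 234. At 5000 to 10000 UMIs the 482 ∆PC members held 128, against 501 in myeloid-only and 26 in cancer-only barcodes of that depth. At 10000 to 20000 UMIs they held 211, against 1014 and 43. In the depth range where most ∆PC members lay, a member therefore carried several-fold fewer macrophage molecules than a macrophage barcode and several-fold more than a cancer barcode. The 3 Ctr members at 5000 to 10000 UMIs held a median of 461, against 593 and 17.

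**Figure D3:**
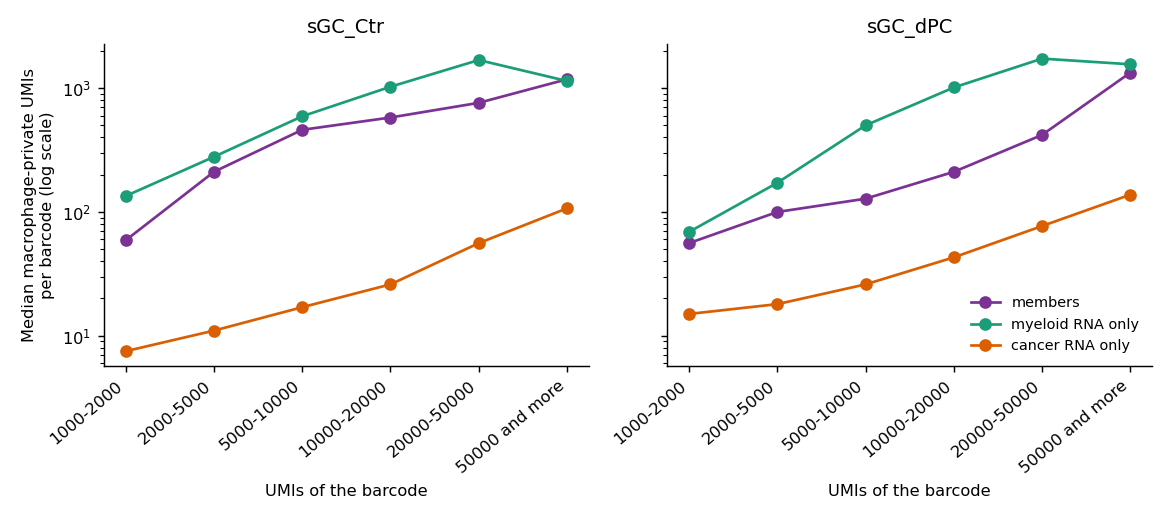
Median number of macrophage-private UMIs per barcode (vertical axis, log scale) by depth of the barcode (horizontal axis, UMIs) for members, myeloid-only and cancer-only barcodes in sGC_Ctr (left) and sGC_dPC (right). Between 5000 and 20000 UMIs the sGC_dPC members (128 and 211) lie between myeloid-only (501 and 1014) and cancer-only barcodes (26 and 43), and at 50000 UMIs and more the members have 1181 (sGC_Ctr) and 1337 (sGC_dPC) against 1143 and 1560 in myeloid-only barcodes.

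The cancer weight was also followed in all myeloid-RNA barcodes of 5000 UMIs or more, whether or not they met the cancer rule. In Ctr the cancer weight had 2 separate ranges: 2192 of 3146 barcodes were at 10% or less and 710 at 10 to 25%, 42 lay between 25 and 50%, and 90 and 112 lay at 50 to 75% and above 75%. In ∆PC 1497 and 748 of 3598 were in the 2 lowest ranges, 265 between 25 and 50%, and 591 and 497 in the 2 highest. Barcodes in between were the fewest in both libraries. Members made up 86 of 112 and 363 of 497 barcodes above 75%. A definition with no rule gene, both weights at 25% or more, was also applied to barcodes of 5000 UMIs or more. Of those with a macrophage weight of 25% or more, 241 of 3169 in Ctr (7.60%) and 1048 of 3320 in ∆PC (31.6%) met it. Among the barcodes that met it, 53 and 447 were members.

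Sex-linked genes gave a view of each side that the rule did not use, chosen after the data were seen. The Y-linked genes Ddx3y, Eif2s3y, Kdm5d and Uty stood at 106 and 100 CPM in myeloid-only barcodes but 1.49 and 3.48 CPM in cancer-only barcodes. Xist, the RNA that coats the inactive X chromosome, stood at 431 and 451 CPM in cancer-only barcodes against 65.9 and 84.8 CPM in myeloid-only ones. The Y-linked genes thus marked the myeloid side and Xist the cancer side. Members held Y-linked RNA at 19.5% (16.6 to 22.8%) of the myeloid-only level in Ctr and 25.9% (23.2 to 28.9%) in ∆PC, from 166 and 358 UMIs. They held Xist at 81.0% (78.0 to 84.1%) and 67.2% (65.2 to 69.3%) of the cancer-only level. At 20000 to 50000 UMIs both signals were found in 20 of 34 Ctr members (58.8%, 40.7 to 75.4%) and 27 of 86 ∆PC members (31.4%, 21.8 to 42.3%), against 36.4% (30.8 to 42.2%) and 37.2% (31.6 to 43.1%) of myeloid-only barcodes. At 50000 UMIs and more they were found in 67.4% and 72.5% of members and in 73.3% and 81.25% of myeloid-only barcodes. The intervals of members and myeloid-only barcodes overlapped in both ranges and libraries, while cancer-only barcodes held both in 3.77% to 13.3%. Against the same single-type levels over all depths, the 720 ∆PC members of 5000 to 20000 UMIs held 23.7% of the Y-linked level and 57.6% of the Xist level. Under 5000 UMIs the 46 Ctr members stood at 182% (110 to 285%) of the Y-linked level, from 19 UMIs, and 56.8% of the Xist level. Their Xist level was 245 CPM, against 2681 CPM in Ctr cancer-only barcodes under 5000 UMIs.

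Xist stays in the nucleus, so its ratio to other cancer RNA bears on whether nuclear RNA came along. Per 1000 UMIs of the other cancer-private genes, Xist had 119 UMIs in Ctr members and 123 in cancer-only barcodes, and 122 and 135 in ∆PC. At 20000 UMIs and more the values were 114 and 122 in Ctr and 142 and 140 in ∆PC. At 5000 to 20000 UMIs in ∆PC they were 104 and 110. In these ranges the members' ratio was close to that of cancer-only barcodes. Under 5000 UMIs it was lower, at 195 against 729.8 in Ctr, from 24 Xist UMIs in members, and 122 against 172 in ∆PC. In the 7 Ctr members of 5000 to 20000 UMIs it was higher, at 639 against 119, with 35.5% of the Xist UMIs in 1 of them. The list Kcnq1ot1, Malat1, Neat1 and Meg3, all RNAs of the nucleus, lay below the weighted mix of both single-type classes, by -0.16 (log2) in Ctr and -0.22 in ∆PC. That value is nearly Malat1's own, with 125880 of the 132445 list UMIs in Ctr and 234505 of 245930 in ∆PC. Kcnq1ot1 was at -0.02 and -0.49, Neat1 at -0.05 and -0.38, and Meg3 above the mix at 0.47 and 0.21, from 45 and 70 UMIs.

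The next question was which macrophages were joined. Genes of macrophage states were counted per 1000 macrophage-private UMIs, so that cancer RNA does not dilute them, and compared with myeloid-only barcodes in the same depth range. At 20000 to 50000 UMIs, monocyte genes (Ly6c2, Plac8, Chil3, Ccr2 and Ms4a4c) were higher in members than in myeloid-only barcodes of both libraries, at 6.71 against 2.23 in Ctr and 9.42 against 3.59 in ∆PC, a log2 ratio of 1.59 (1.36 to 1.81) and 1.39 (1.23 to 1.55). Cancer-only barcodes held 6.26 and 6.75, so an excess over myeloid-only barcodes was not particular to members. Inflammatory genes such as Il1b were higher too, at 22.8 against 7.59 and 24.7 against 13.5, and higher still in cancer-only barcodes with 39.2 and 40.4. Resident-like genes such as Mrc1, the mannose receptor, and Folr2 were lower, at 28.3 against 57.1 and 24.2 against 47.95, and cancer-only barcodes were lower yet with 13.9 and 14.5. MHC class II genes, which present antigen, were at 87.7 against 37.9 in Ctr and 72.3 against 68.4 in ∆PC. Osteoclast-like genes were at 15.7 against 19.8 and 20.7 against 21.7. The Ctr value rests largely on 1 member of 32602 UMIs, which held 416 of the 591 osteoclast-like UMIs of all Ctr members. Within this range the median depth was 43101.5 UMIs in Ctr members against 24301.5 in myeloid-only barcodes, and 25647.5 against 24503 in ∆PC.

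The monocyte, inflammatory and resident-like differences were smaller or turned at 50000 UMIs and more, where only 30 and 16 myeloid-only barcodes were left. There the log2 ratio of members to myeloid-only barcodes was 0.69 in Ctr and -0.06 in ∆PC for the monocyte list, 0.14 and -0.21 for the inflammatory list, -0.41 and 0.08 for the resident-like list and 0.47 and 0.41 for MHC class II. The osteoclast-like list stood at -3.60 and -1.57, further from 0 than at 20000 to 50000 UMIs. In Ctr that contrast cannot be read as a change with depth, because the 20000 to 50000 UMI value rests largely on the member with 416 list UMIs. Several directions also turned when all depths were taken. The log2 ratio of members to myeloid-only barcodes was then -1.07 in Ctr and -0.44 in ∆PC for the monocyte list, 0.04 and 0.11 for the resident-like list, -0.61 and -0.22 for MHC class II, -0.35 and 0.03 for the inflammatory list, and -1.17 and 0.78 for the osteoclast-like list.

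**Figure D4:**
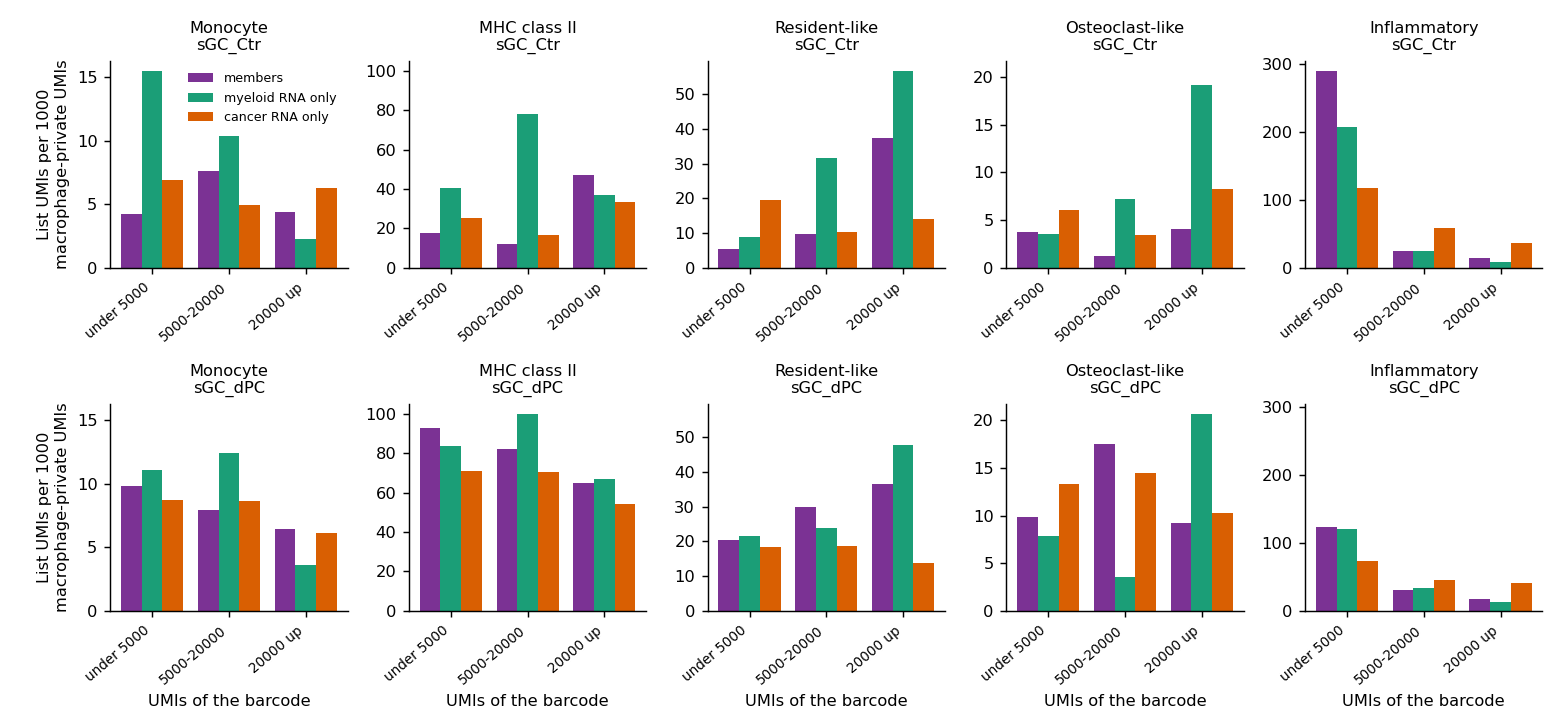
UMIs of 5 macrophage state lists per 1000 macrophage-private UMIs (vertical axis, 1 panel per list, sGC_Ctr above and sGC_dPC below) in 3 depth ranges (horizontal axis, UMIs of the barcode); bars are members, myeloid-only and cancer-only barcodes. In sGC_dPC members of 5000 to 20000 UMIs the osteoclast-like list reaches 17.5 against 3.58 in myeloid-only and 14.5 in cancer-only barcodes, while at 20000 UMIs and more it is 4.09 against 19.2 (sGC_Ctr) and 9.17 against 20.7 (sGC_dPC).

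In ∆PC members of 5000 to 20000 UMIs the osteoclast-like genes stood apart. These genes belong to the bone-resorbing program that macrophages can turn on: Acp5 is tartrate-resistant acid phosphatase, Ctsk is cathepsin K, Mmp9 is a gelatinase, and Ocstamp and Dcstamp act in cell fusion. Members held 17.5 UMIs of the list per 1000, against 3.58 in myeloid-only barcodes of that depth, a log2 ratio of 2.29 (2.22 to 2.36). Cancer-only barcodes of that depth held 14.5, so the excess over myeloid-only barcodes was not particular to members. Among the other lists in the same members, monocyte genes were at 7.90 against 12.4, MHC class II genes at 82.5 against 100, and resident-like genes at 29.8 against 23.8. Over all depths, Acp5 reached 134 CPM in ∆PC members, 238 in myeloid-only and 15.8 in cancer-only barcodes, Ctsk 74.8, 154 and 9.81, and Mmp9 40.8, 67.8 and 7.31.

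The osteoclast-like signal was unevenly spread. Of 3650 list UMIs in ∆PC members, 79 members held 88.6%, with 6.11% in the richest one. Those 79 had a median of 26 list UMIs, a median cancer weight of 61.5% and a macrophage weight of 25.2%. In Ctr 1 member held 70.4% of 591 list UMIs. When each barcode with at least 10 state-list UMIs was given the state in which it was relatively richest, the osteoclast-like state had the highest share of members among the states given here in ∆PC, 79 of 289 barcodes (27.3%, 22.3 to 32.9%), and the lowest in Ctr, 1 of 123 (0.813%, 0.0206 to 4.45%). That order holds only among barcodes with the myeloid rule that were given a state. Barcodes with fewer state-list UMIs were given none, and members were 26.6% of them in ∆PC and 11.9% in Ctr. Of all barcodes with at least 10 UMIs of the list, whatever their class, 15.3% of 177 in Ctr (10.3 to 21.4%) and 49.1% of 389 in ∆PC (44.0 to 54.2%) met the cancer rule, most of them cancer-only (25 and 142) rather than members (2 and 49). Among myeloid-RNA barcodes of 5000 to 20000 UMIs in ∆PC, members were 48 of 103 osteoclast-like barcodes (46.6%, 36.7 to 56.7%), against 14.7% of monocyte-like, 20.3% of MHC class II, 23.7% of resident-like and 21.6% of inflammatory barcodes. The share was higher still in barcodes of that depth given no state, 122 of 185 (65.9%, 58.6 to 72.7%). Whatever the class, the cancer rule was met at that depth by 60.4% of 144 barcodes with at least 10 list UMIs in ∆PC and 0 of 84 in Ctr (up to 4.30%).

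At 20000 UMIs and more the shares by state spread more widely in Ctr than in ∆PC. Of myeloid-RNA barcodes given each state, members were 8 of 14 inflammatory (57.1%), 15 of 31 monocyte-like (48.4%), 18 of 50 MHC class II (36.0%), 44 of 216 resident-like (20.4%) and 1 of 31 osteoclast-like barcodes (3.23%). In ∆PC they were 38.5%, 33.3%, 26.8%, 23.9% and 22.4% in the same order. In ∆PC the intervals of these 5 states overlapped. These shares count only barcodes with the myeloid rule. Of all barcodes of this depth with at least 10 UMIs of the osteoclast-like list, whatever their class, 30.3% of 89 in Ctr and 55.5% of 155 in ∆PC met the cancer rule, and 25 and 76 of the barcodes were cancer-only.

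Genes for engulfment and digestion were then set against the weighted mix of both single-type classes, which is the level that adding the 2 profiles gives. Across every gene that had 50 UMIs or more in members, the median log2 ratio to that mix was -0.0032 in Ctr and -0.046 in ∆PC, with 5th to 95th percentiles of single genes of -0.26 to 0.24 and -0.32 to 0.20. The lysosome list, led by Ctsl and Ctsb, was at 0.10 and 0.11, with Ctsd at 0.29 and 0.17 and Cd63 at 0.16 and 0.25. The engulfment list was at 0.12 in Ctr and -0.0014 in ∆PC. Of its genes, Stab1, a receptor for phosphatidylserine, was at 0.30 in both, Gas6, a ligand that bridges dying cells to Axl and Mertk, at 0.18 and 0.32, and Mfge8 at 0.08 and 0.11. Itgav (-0.04 and -0.10), Elmo1 (-0.07 and -0.24), Havcr2 (-0.03 and -0.41) and Timd4 (-2.87 and -0.52, from 1 and 19 UMIs) lay below the mix in both. All others were above it in Ctr and below it in ∆PC, among them Mertk at 0.27 and -0.12, and Axl at 0.06 and -0.02. The mix used the private-gene weights, and the ratios were not taken with the weights of the non-negative fit. The contact list of integrins and their ligands was at 0.04 and -0.11. Immediate early and heat shock genes, which tissue digestion induces, were at -0.07 and -0.29.

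Lists of cancer-cell states were set against the same mix. No gene of the S phase, G2/M, hypoxia and mesenchymal lists was low enough in myeloid-only barcodes to be counted on the cancer side alone, so their ratios cannot be assigned to either side. G2/M genes were at -0.27 in Ctr and -0.21 in ∆PC, with 748 CPM in Ctr myeloid-only and 1024 CPM in Ctr cancer-only barcodes. S phase genes were at -0.08 and 0.06, hypoxia genes such as Car9 and Bnip3 at -0.07 and 0.03, mesenchymal genes such as Prg4 and Aspn at 0.05 and -0.02, oncofetal genes such as Igf2bp1 at -0.03 and -0.05, and the group of Igfbp6, Clu and Scara5 at 0.23 and 0.03. The square-root CPM of members had a correlation with the fitted mix of 0.999 and 0.998 across genes, which are not independent replicates. That mix was fitted to these same profiles, and the correlation with either single-type class alone was not taken. The value therefore does not show that members are a sum of both classes.

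Members were then searched for genes whose CPM stood above both single-type classes. No gene did so by 1.5-fold in both libraries, 0 of 8939 genes with at least 50 UMIs in the members of each (0%). Macrophage RNA is diluted in members, whose pooled macrophage weight was 25.3% in Ctr and 30.6% in ∆PC. A rise confined to the macrophage side could therefore stay under this limit, and such a rise was not tested. In Ctr alone it was 0 of 8943 (0%), and in ∆PC alone 8 of 10078 (0.0794%). The genes that came highest in both were Lin9, a cell-cycle regulator, with 1.21-fold as the smaller of its 2 values, Trp53i11 with 1.19-fold, Adprm with 1.17-fold, then Ephx1, Sfi1, Pigv, Nudt19, D930016D06Rik, Cystm1 and Rab40c with 1.12 to 1.17-fold. Lin9 held 11.5 CPM in Ctr members against 9.49 in myeloid-only and 8.37 in cancer-only barcodes. Ccl2, a chemokine that draws monocytes and was named after its values were seen, was at 676 and 712 CPM in members, 1.12-fold and 1.13-fold above the higher class. After thinning to 2000 UMIs the median member had 929.5 genes in Ctr and 915 in ∆PC, between myeloid-only (994 and 965) and cancer-only barcodes (884 and 876).

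The last comparison set ∆PC members against Ctr members, gene by gene, as values of 2 libraries. Of 9627 genes with at least 100 UMIs in members, 79 were higher in ∆PC by 2-fold (0.821%) and 3 lower (0.0312%), with a median log2 ratio of -0.051. In myeloid-only barcodes 59 of 11861 genes were higher (0.497%) and 32 lower (0.27%), and in cancer-only barcodes 386 of 14131 (2.73%) and 12 (0.0849%). The members' shares lay between or below those of the single-type classes.

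The 10 highest ratios were those of Ndufa4l2, Mfap5, Ankmy1, Igfbp7, Rarres2, Col1a1, Col1a2, Col12a1, Postn and Bgn. Col1a1 and Col1a2, the chains of type I collagen, were at 9.15 and 6.64 CPM in Ctr members and 82.9 and 58.9 CPM in ∆PC members, log2 ratios of 3.18 (2.84 to 3.54) and 3.15 (2.75 to 3.58). Col1a1 had a UMI in 26.0% of Ctr members and 19.6% of ∆PC members, with 6.65% of its ∆PC UMIs in 1 barcode. In the single-type classes its log2 ratio was 0.98 in myeloid-only and 0.97 in cancer-only barcodes. Its level in Ctr and ∆PC was 60.5 and 120 CPM in myeloid-only and 26.0 and 50.9 CPM in cancer-only barcodes. Ctr members thus lay below both classes for Col1a1, and ∆PC members between them. Mfap5, of microfibrils, was at 3.63, Igfbp7, a secreted binding protein of vessels and stroma, at 3.36, Col12a1 at 3.15, Postn at 3.06 and Bgn, a matrix proteoglycan, at 2.90, and Ankmy1 and Rarres2 were at 3.63 and 3.36. Ndufa4l2, a hypoxia-regulated gene also strong in pericytes, had 2 UMIs in Ctr and 115 in ∆PC, a log2 ratio of 5.06 with an interval of 3.17 to 8.12. These were small levels: Ndufa4l2 reached 8.34 CPM.

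Since members differed in depth, the same ratios were taken in members of 20000 UMIs or more, 120 in Ctr and 126 in ∆PC. There 44 of 8493 genes were higher by 2-fold and 1 lower. Col1a1 was at 2.22 (1.82 to 2.63), Col1a2 at 2.15, Bgn at 2.31, Igfbp7 at 2.53 and Postn at 1.05 (-0.29 to 2.45). The collagens had a ratio above 2 on the log2 scale in deep members, and Postn's interval reached 0. These genes were picked by their ratio in all members, which include the deep ones, so the deep ratios are not independent of that choice. Deep members held 69 of the 73 Col1a1 UMIs of Ctr members. Lyz2 stood at 4596 and 4592 CPM in these deep members, a log2 ratio of -0.0014, and Cd74, the MHC class II chaperone, at 391 and 549 CPM, a ratio of 0.49 (0.42 to 0.56). AY036118, named after its values were seen, was at 164 and 477 CPM in deep members.

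**Figure D5:**
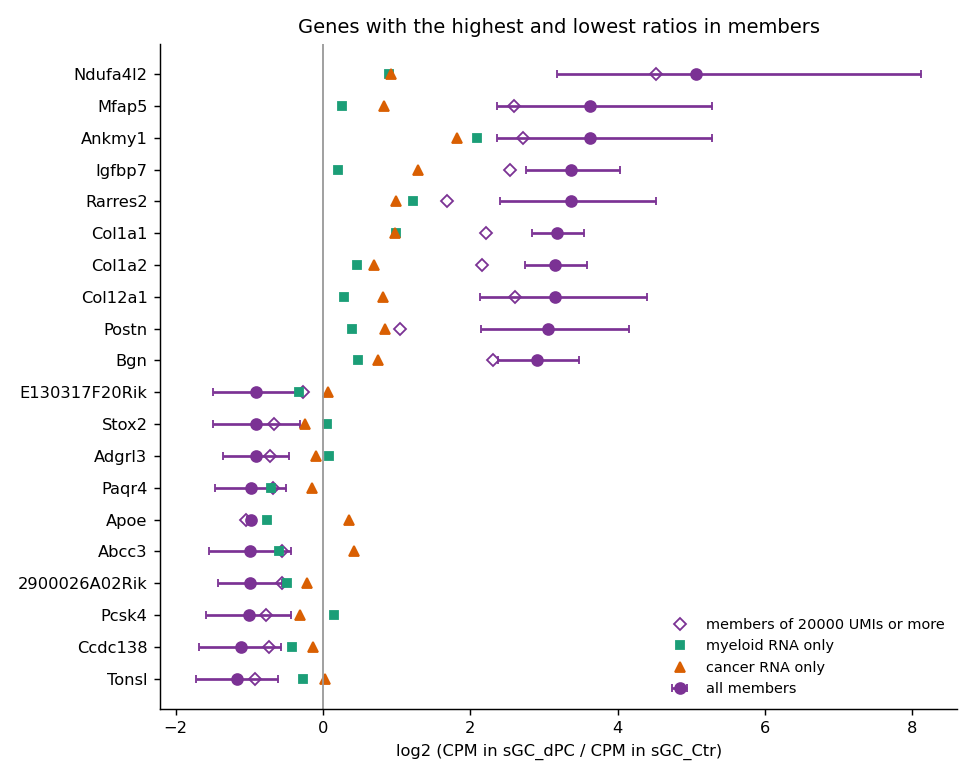
Log2 ratio of CPM in sGC_dPC to sGC_Ctr (horizontal axis) for the 10 genes with the highest and the 10 with the lowest ratio in members: filled circles are all members with exact 95% intervals, open diamonds members of 20000 UMIs or more, squares myeloid-only and triangles cancer-only barcodes. The genes were picked by their ratio in members, so a more extreme position there than in the single-type classes follows in part from that choice. Apoe is at -0.98 in members.

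On the lower side Apoe, a lipid carrier of macrophages, stood out by its level. It was at 1003 CPM in Ctr members and 508 CPM in ∆PC members, a log2 ratio of -0.98 (-1.03 to -0.94), at -1.05 (-1.11 to -0.99) in deep members and at -0.76 in myeloid-only barcodes. It was found in 77.5% and 64.6% of members. The other genes of the lowest 10 had 12.4 CPM or less in members. Tonsl, of replication fork repair, was at -1.16 (-1.72 to -0.61), Ccdc138 at -1.12 and Pcsk4 at -1.01, and 2900026A02Rik, Abcc3, Paqr4, Adgrl3, Stox2 and E130317F20Rik were between -0.99 and -0.90. Per 1000 macrophage-private UMIs, MHC class II genes were at 44.7 in Ctr members and 78.2 in ∆PC members, a log2 ratio of 0.81 against 0.42 in myeloid-only barcodes, and osteoclast-like genes at 4.01 and 12.99, a ratio of 1.70 against -0.25. The order of the libraries in MHC class II changed with depth, since Ctr and ∆PC members stood at 87.7 and 72.3 at 20000 to 50000 UMIs and at 36.0 and 60.0 at 50000 UMIs and more. Over all barcodes of 20000 UMIs and more, members stood at 46.9 in Ctr and 65.0 in ∆PC, and myeloid-only barcodes at 36.9 and 67.1. At that depth the larger difference between libraries was thus in myeloid-only barcodes.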

How the data were processed

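Single-cell RNA was measured in 1 10x Genomics 3' library per condition. Reads were processed by the authors with Cell Ranger 6.1.1 (mm10), and they deposited raw counts of UMIs per gene and barcode, used here unchanged. Members, marker lists and state lists were chosen with earlier results of these data known.

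Python 3.11.15, numpy 2.4.6, scipy 1.17.1 and pandas 2.3.3 were used, and the code was tested on simulated data. CPM were taken over summed UMIs of a class. Private genes had at least 20 CPM and a 10-fold difference between classes. No gene passed against all myeloid-only barcodes on the cancer side, so barcodes of at least 5000 UMIs without a UMI of the 4 cancer genes were the reference, chosen after seeing the data. A further state list and some genes of other lists are not reported here. State-list genes whose cancer-class CPM exceeded 25% of the myeloid-class CPM were left out. Ratios between libraries used 0.5 added counts for ranking only. Named genes were the rule and list genes, the 10 highest over both classes and the 10 highest and 10 lowest ratios. Depth ranges, whole lists against the mix and the sex-linked genes were added after seeing the data. No doublet caller was run, because mixed droplets are the subject. With 1 library per condition no test was possible. The lack of replicate tumors and the difference in depth limit every comparison between libraries.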

Additional observations from a re-analysis of the deposited data

Results flagged for a closer look

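Barcodes outside the depth and mitochondrial limits also met both marker thresholds, 51 in Ctr and 212 in ∆PC, and they entered no comparison. Of these, 31 and 145 had 10% or more mitochondrial UMIs and 20 and 67 had under 1000 UMIs.

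The osteoclast-like list went opposite ways in the libraries. Per 1000 macrophage-private UMIs and over all depths, members stood at a log2 ratio of -1.17 to myeloid-only barcodes in Ctr and 0.78 in ∆PC. The difference between libraries was not tested, and at 20000 UMIs and more the ratio was below 0 in both, at -2.23 and -1.17.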

How the results depend on the processing

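No paired analysis was possible because each condition has 1 library and no value comes from a test. Of 162 alternative values, 57 moved by less than their interval or spread, 76 moved further and 29 changed sign; of the list ratios these were 18, 53 and 29. In each alternative listed here the share of members among myeloid-RNA barcodes was higher in ∆PC. The intervals overlapped over all barcodes of 20000 UMIs and more, but not at 20000 to 50000 UMIs. The members' share was 0.187% in Ctr and 1.87% in ∆PC at 2000 CPM on both sides, and 12.97% and 38.4% at 500 CPM. It was 5.01% and 28.0% thinned to 5000 UMIs, 1.06% and 6.50% with Rhox5 and Krt18 alone, and 27.5% and 29.5% at 20000 UMIs and more. In ∆PC it was 22.3% at 2000 UMIs and more, 20.5% thinned to 2000 UMIs and 23.5% at 5000 UMIs and more. With private genes only, a different share was taken. Barcodes with both weights at 25% or more were 7.60% and 31.6% of those with a macrophage weight of 25% or more. With 1 UMI as the minimum, 110 genes stood above both classes, of which 108 had under 10 UMIs in a library. In members of 20000 UMIs and more 44 genes were higher and 1 lower in ∆PC.

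List ratios to myeloid-only barcodes are log2 values. The monocyte list in Ctr was -4.82 at 2000 CPM, -1.41 with the macrophage check genes as denominator, 0.97 at 20000 UMIs and more, -0.45 at 5000 to 20000 UMIs and -1.20 without the richest member. In ∆PC it was -0.52 at 5000 UMIs and more and with private genes at 5-fold, -0.67 with the check genes, 0.82 at 20000 UMIs and more and -0.65 at 5000 to 20000. The MHC class II list in Ctr was -5.63 at 2000 CPM, -0.71 at 5-fold, -0.95 with the check genes, 0.34 at 20000 UMIs and more, -2.72 at 5000 to 20000 and -0.75 without the richest member. In ∆PC it was -0.34, -0.31 at 5000 UMIs and more, -0.30 at 5-fold, -0.45, -0.044, -0.28 and -0.28 in the same order. The resident-like list turned negative in Ctr at -0.53 (2000 CPM), -0.062 (5-fold), -0.30 (check genes), -0.60 (20000 UMIs and more), -1.70 (5000 to 20000) and -0.064 (without the richest member), and in ∆PC at -0.46, -0.12 (check genes) and -0.38 (20000 UMIs and more). The osteoclast-like list in Ctr was -2.37 at 2000 CPM, -1.51 with the check genes, -2.23 at 20000 UMIs and more, -2.58 at 5000 to 20000 and -2.92 without the richest member. In ∆PC it was 1.31, 0.87 at 5000 UMIs and more, 0.70 at 5-fold, 0.55 with the check genes, -1.17 at 20000 UMIs and more, 2.29 at 5000 to 20000 and 0.69 without the richest member. In Ctr the inflammatory list turned to 0.30 (2000 CPM) and 0.84 (20000 UMIs and more). Splitting at 50000 UMIs gave, at 20000 to 50000 UMIs in Ctr and ∆PC, 1.59 and 1.39 for the monocyte list, 1.21 and 0.080 for MHC class II, -1.01 and -0.99 for resident-like, -0.33 and -0.067 for osteoclast-like and 1.59 in Ctr for inflammatory genes. At 50000 UMIs and more these were 0.69 and -0.062, 0.47 and 0.41, -0.41 in Ctr, -3.60 and -1.57, and 0.14 in Ctr. The Ctr osteoclast-like value of -0.33 at 20000 to 50000 UMIs rests largely on the member with 416 of 591 list UMIs. The value without that member is given for all depths only. Why the lists turned with depth was not tested.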
